A study of Mus musculus with 43 samples.

Results

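The nuclear genome encodes all of respiratory complex II, most subunits of complexes III and IV, cytochrome c, and the proteins that assemble them. The 36 genes described here were taken by symbol from the 57010 genes of the count table, and all 36 were found. They comprise the 4 subunits of complex II (Sdha, Sdhb, Sdhc, Sdhd) with the assembly factor Sdhaf2, and 9 subunits of complex III (Uqcrc1, Uqcrc2, Uqcrfs1, Uqcrb, Uqcrq, Uqcrh, Uqcr10, Uqcr11, Cyc1) with the assembly factor Bcs1l. Cycs encodes cytochrome c. For complex IV there were 8 genes of paired isoforms (Cox4i1 and Cox4i2, Cox6a1 and Cox6a2, Cox7a1 and Cox7a2, Cox8a and Cox8b), 6 other subunits (Cox5a, Cox5b, Cox6b1, Cox6c, Cox7b, Cox7c) and 5 assembly factors (Cox10, Cox11, Cox15, Cox17, Surf1). The last gene, Cox7a2l, encodes a factor that joins complexes III and IV into supercomplexes.

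The study profiled mice carrying a stop-gained allele of Vegfa, named Q150X and made with CRISPR/Cas9, beside wild-type (WT) mice, without injury and after myocardial infarction (MI). Bulk RNA-seq covered 3 compartments: cardiomyocytes (CM), endothelial cells (EC) and the whole heart. Uninjured animals, called homeostasis, gave 3 libraries per genotype in each of these compartments. After MI there were 4 WT and 4 Q150X hearts at day 7, 3 WT and 4 Q150X hearts at day 30, 2 and 2 EC libraries at day 3, and 3 and 3 CM libraries at day 3, so that 43 libraries fell into 14 groups. The labels mark the Q150X libraries as HO. The sources used here do not give strain, sex, age or how EC and CM were isolated. The labels do not say whether libraries of a group came from separate animals, so p-values measure only the spread between these libraries.

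Electrons from succinate enter the respiratory chain at complex II, pass through ubiquinone to complex III, and are carried by cytochrome c to complex IV, where oxygen is reduced. Heart muscle depends on this chain for most of its ATP. Several complex IV subunits exist as a form made in heart and skeletal muscle (Cox6a2, Cox7a1, Cox8b in mice) and a form made in most tissues (Cox6a1, Cox7a2, Cox8a), and Cox4i2 is an isoform of Cox4i1 known from lung and from oxygen-sensitive cells.

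Library totals ranged from 25035490 to 45243608 counts. The 36 genes together took 1.08% to 1.59% of counts in hearts, 0.819% to 1.20% in CM and 0.162% to 0.248% in EC libraries. Transcripts of the mitochondrial genome took 21.8% to 33.7% in hearts, 33.1% to 49.96% in CM and 1.73% to 35.5% in EC. The heart libraries fell into 2 sets that the labels do not name: mt-Atp8 stood at 305 to 722 CPM (counts scaled to 1000000 per library) in 9 libraries, which were both uninjured hearts numbered 1 and all 7 day-30 hearts, and at 15.5 to 35.3 CPM in the other 12. Of 12711 genes with a mean count of at least 50, 705 were higher in the first set without overlap and 699 in the second. Those 2 uninjured hearts also had atrial marker sums of 2809 and 2754 CPM against 39.8 to 64.7 CPM in the other uninjured hearts. The fourth WT heart of day 7 had a placental marker sum of 1115 CPM, and the second Q150X EC library of day 3 held 1290 CPM of Rag1, a lymphocyte recombination gene, against at most 1.22 CPM in the other EC libraries. Where counts of called genes or isoform ratios changed without these 4 libraries, values without them are also given. Between EC genotypes at day 3, where 1 Q150X library then remains, only the median difference is given.

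In uninjured WT libraries the respiratory genes were far higher in CM than in EC. With edgeR's quasi-likelihood test and Benjamini-Hochberg adjustment over all genes of a fit (a gene is called at an adjusted p under 0.05), 33 of the 36 were higher in CM and 1 was lower, where 70.4% of 17617 genes were called in either direction and 32.6% were called higher. The median log2 difference of the 36 was 3.63, beside -0.20 for all genes tested. All 4 complex II subunits, all 9 complex III subunits and all 6 unpaired complex IV subunits were among the 33.

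Apart from Cox7a1, which is described with its partner, the smallest p were those of Uqcrfs1, Sdhb and Cox7b, given here as CPM scaled over all uninjured libraries. Uqcrfs1, the Rieske iron-sulfur protein of complex III, stood at 931, 873 and 925 CPM in the WT CM libraries and at 30.4, 35.6 and 38.9 CPM in EC, a log2 difference of 4.70 ± 0.17 (SE; edgeR adjusted p = 2.63e-13). Sdhb, the iron-sulfur subunit of complex II, stood at 783, 732 and 791 CPM in CM and at 30.1, 34.5 and 35.4 CPM in EC (log2 difference 4.53 ± 0.16, adjusted p = 2.86e-13). Cox7b, a small complex IV subunit, stood at 528, 469 and 541 CPM against 23.1, 29.7 and 28.1 CPM (4.25 ± 0.16, adjusted p = 3.41e-13). For all 3 genes the CM and EC libraries lay far apart, with little spread within either.

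Cytochrome c itself followed the same order. Cycs stood at 775, 687 and 730 CPM in CM and at 44.0, 57.3 and 49.99 CPM in EC. Among the called genes that were higher in CM, the smallest differences were those of Cox7a2l (0.38) and of Surf1 (0.48), a complex IV assembly factor. Both turned to the other sign, -0.93 and -0.84, when libraries were scaled by their totals alone, which moved the median of all genes from -0.20 to -1.52.

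Whole hearts and CM had similar levels of most of these genes. CM against heart gave 6 genes higher and 2 lower, where 33.3% of all genes were called, and the median log2 difference of the 36 was 0.01. Uqcrc2, a core subunit of complex III, stood at 1100, 966 and 1079 CPM in CM and 512, 718 and 650 CPM in heart (0.74 ± 0.14, adjusted p = 0.000737). Sdha, the flavoprotein of complex II, stood at 2102, 2056 and 2208 against 1259, 1429 and 1388 CPM (0.64 ± 0.15, adjusted p = 0.00306). In both genes every CM library was above every heart library. Cox15, which makes the heme A of complex IV, and Sdhaf2, which helps to load flavin on Sdha, differed by 0.57 ± 0.13 and 0.50 ± 0.13, with adjusted p = 0.00309 and 0.0092. This comparison depended on scaling: by library totals alone 26 genes were called and all were lower in CM, with the median of all genes at -0.79. Without the hearts numbered 1 it gave 5 higher and 5 lower. EC against heart, which uses the same heart and EC libraries, gave 1 gene higher and 34 lower where 61.1% of genes were called and 31.4% were called lower.

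Within a compartment the genes covered a wide range when counts were divided by transcript length. In WT CM the highest were Cox4i1, the main form of subunit IV, at 1452 CPM per kilobase, Cox6c at 1032 and Cox6a2 at 1010 CPM per kilobase. The lowest were Cox4i2 at 0.970, Cox11, a copper-delivery factor, at 4.58 and Cox15 at 11.9 CPM per kilobase. In WT EC, Cox4i1 was again first at 154 CPM per kilobase, followed by Uqcrh, the hinge protein of complex III, at 152 and Cox7a2l at 131 CPM per kilobase. The lowest in EC were Cox11 at 1.45, Cox10, which makes heme O, at 2.22 and Cox15 at 2.76 CPM per kilobase. The plot of levels in uninjured libraries shows each library.

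**Figure D1:**
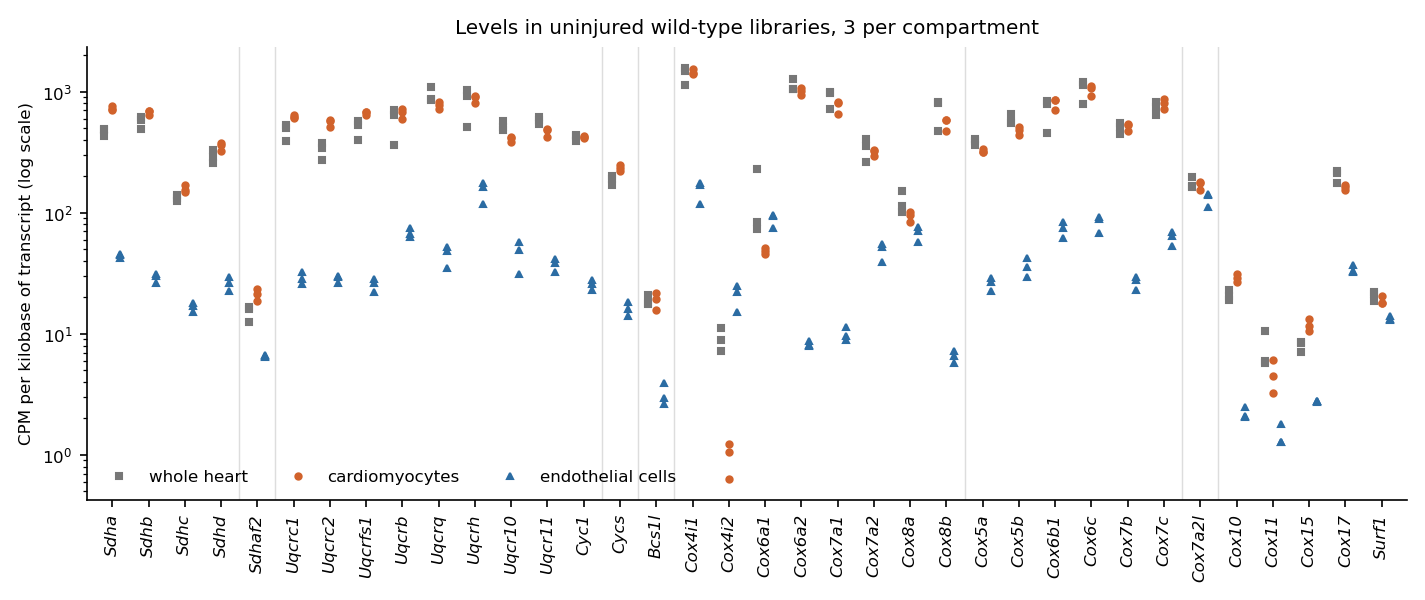
Level of each of the 36 genes in the 3 uninjured WT libraries of whole heart (squares), cardiomyocytes (circles) and endothelial cells (triangles), in CPM per kilobase of transcript on a log axis, with grey lines between roles. Heart and cardiomyocyte points lie close together for most genes and above the endothelial points, except for Cox4i2, which is highest in the endothelial libraries, and for Cox6a1.

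The isoform pairs of complex IV differed in ratio between CM and EC. The promoters of the members of 3 pairs are shown because the partners differ in these data by compartment. Each line gives the 250 bases before the RefSeq start site (assembly GRCm38.p6), 5′ to 3′ on the gene's strand, with matches to the words searched in capitals. Cox6a1 lies at chr5:115348959-115349208 (minus strand), Cox7a1 at chr7:30183921-30184170 (plus), Cox7a2 at chr9:79759854-79760103 (minus), Cox8a at chr19:7217617-7217866 (minus) and Cox8b at chr7:140900447-140900696 (minus).
Cox6a1: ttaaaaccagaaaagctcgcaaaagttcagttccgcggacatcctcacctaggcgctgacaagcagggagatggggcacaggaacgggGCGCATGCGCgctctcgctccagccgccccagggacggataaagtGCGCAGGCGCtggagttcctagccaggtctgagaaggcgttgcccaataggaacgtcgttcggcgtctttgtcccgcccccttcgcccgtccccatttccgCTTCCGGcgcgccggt
Cox7a1: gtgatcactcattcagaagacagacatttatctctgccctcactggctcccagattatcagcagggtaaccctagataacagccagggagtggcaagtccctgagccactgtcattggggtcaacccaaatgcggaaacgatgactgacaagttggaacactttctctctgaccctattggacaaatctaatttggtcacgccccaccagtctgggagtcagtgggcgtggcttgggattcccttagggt
Cox7a2: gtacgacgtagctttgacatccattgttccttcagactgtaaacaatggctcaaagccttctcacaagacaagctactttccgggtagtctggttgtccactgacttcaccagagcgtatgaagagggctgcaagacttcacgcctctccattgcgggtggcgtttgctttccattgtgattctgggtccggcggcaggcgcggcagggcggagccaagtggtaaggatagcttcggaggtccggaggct
Cox8a: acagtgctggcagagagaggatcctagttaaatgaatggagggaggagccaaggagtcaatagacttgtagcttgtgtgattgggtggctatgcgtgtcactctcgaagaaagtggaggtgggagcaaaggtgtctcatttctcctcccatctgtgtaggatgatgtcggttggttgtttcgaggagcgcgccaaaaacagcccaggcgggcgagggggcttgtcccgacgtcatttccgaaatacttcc
Cox8b: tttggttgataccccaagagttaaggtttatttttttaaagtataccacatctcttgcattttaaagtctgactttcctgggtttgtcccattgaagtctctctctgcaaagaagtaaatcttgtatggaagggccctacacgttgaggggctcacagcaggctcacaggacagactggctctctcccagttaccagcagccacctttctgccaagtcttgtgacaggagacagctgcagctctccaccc

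The Cox6a1 promoter held 26 CpG dinucleotides, 2 matches to the motif of NRF1, a factor of respiratory genes, and 1 match to the GABPA word CCGGAAG, which reads as its reverse complement in the printed strand. Cox7a1 and Cox8b, the muscle forms, held 4 and 1 CpG, and their partners Cox7a2 and Cox8a held 14 and 11, where the median of 32851 mouse promoters of this length was 6. None of these 4 promoters held one of the words or motifs searched. Promoters were given for 26 of the 36 genes, and not for Cox17, Cox4i2, Sdhc, Uqcrc2, Uqcrb, Cyc1, Cox6c, Uqcrq, Cox6a2 and Cox4i1. Of the 26, 8 held the GABPA word (30.8%, against 6.91% of all promoters): Bcs1l, Cox10, Cox6a1, Cox6b1, Sdhaf2, Sdhd, Uqcr11 and Uqcrh. The NRF1 motif was in 3 (Cox6a1, Sdha, Sdhd; 11.5% against 3.74%), the YY1 word ATGGCGG in 1 (Sdhaf2; 3.85% against 2.21%), and the ERR word AAGGTCA and the MEF2 motif in 0, against 4.08% and 2.92% of all promoters. Both strands were searched. The GABPA and YY1 words and the NRF1 motif contain CpG, and most of the 26 promoters held more CpG than the median of 6. The shares were not compared between promoters of equal CpG content. A match to a word is a description of the letters and not a measured site.

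Muscle isoforms dominated the pairs in CM and ubiquitous isoforms in EC. Cox6a2 made up 95.4% ± 0.0321 (SD, n = 3) of the Cox6a pair per kilobase in WT CM, 90.2% ± 4.85 in WT heart and 8.68% ± 1.62 in WT EC. Cox7a1 made up 70.7% ± 1.23 of its pair in CM, 72.4% ± 1.16 in heart and 17.1% ± 1.51 in EC. Cox8b made up 85.4% ± 0.562 in CM, 84.2% ± 7.20 in heart and 8.86% ± 2.09 in EC. The groups of CM and EC did not overlap for any of the 3 pairs.

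These ratios were tested as log2 ratios of counts (not per length) within each library by exact two-sided permutation tests over libraries, stratified by genotype or time, with 36 tests adjusted together, of which 10 passed. CM against EC at homeostasis differed by 7.85 for Cox6a2/Cox6a1, 3.48 for Cox7a1/Cox7a2 and 5.96 for Cox8b/Cox8a, each with exact permutation p = 0.005 (adjusted 0.02), the smallest p that 400 regroupings allow. Cox4i2 went the other way: Cox4i2/Cox4i1 was lower in CM by 8.91 on the log2 scale (-8.91, exact permutation p = 0.005, adjusted 0.02). CM against heart at homeostasis differed by 1.13 for Cox6a2/Cox6a1 and by -4.42 for Cox4i2/Cox4i1 (each exact permutation p = 0.005, adjusted 0.02). There Cox7a1/Cox7a2 (-0.13, adjusted p = 0.371) and Cox8b/Cox8a (0.10, adjusted p = 0.842) did not pass. Cox4i2 counts in CM were near the lower limit of counting.

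By level, the muscle forms differed between CM and EC and 2 of the 3 ubiquitous partners did not pass the test. The third, Cox7a2, was called higher in CM, at 212, 193 and 218 CPM against 25.8, 34.4 and 36.4 CPM in EC. Cox6a2 stood at 643, 693 and 724 CPM in CM and 5.95, 5.49 and 5.34 CPM in EC (log2 difference 6.94 ± 0.34). Cox7a1 stood at 317, 259 and 323 CPM against 3.52, 3.79 and 4.50 CPM (6.25 ± 0.21, adjusted p = 1.46e-13). Cox8b stood at 210, 171 and 210 CPM against 2.60, 2.35 and 2.07 CPM (6.40 ± 0.26). Muscle isoforms were thus a small but counted part of EC libraries, where 12 cardiomyocyte markers summed to 824 to 968 CPM, against 118928 to 130338 CPM in WT CM. Whether the muscle isoform counts in EC come from that RNA was not tested.

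Cox6a1 stood at 25.9, 27.6 and 29.0 CPM in CM and 42.5, 53.2 and 55.1 CPM in EC. The CM libraries were all below the EC libraries, but the log2 difference of -0.87 ± 0.48 did not pass (edgeR adjusted p = 0.118). Cox8a did not pass either, at 0.46 (adjusted p = 0.0762). Cox4i2 stood at 11.0, 17.9 and 16.1 CPM in EC, 8.13, 5.28 and 6.47 CPM in heart and 0.886, 0.770 and 0.460 CPM in CM. Its log2 difference was -4.42 ± 0.43 in CM against EC (adjusted p = 6.18e-08), -3.25 ± 0.42 in CM against heart (adjusted p = 2.9e-05) and 1.18 ± 0.35 in EC against heart (adjusted p = 0.00712). The WT EC libraries also held markers of cells that surround vessels. Pericyte markers summed to 1962 to 2986 CPM in EC and 988 to 1324 CPM in heart, and smooth muscle markers to 920 to 1039 and 185 to 322 CPM. Endothelial markers summed to 13412 to 14153 and 2072 to 2221 CPM. The part of each cell type in the Cox4i2 levels was not tested. Cox6a1 was called lower in CM than in heart (adjusted p = 0.0334), but 1 heart set the difference: the WT heart numbered 1 held 132 CPM and the others 47.5 and 42.3, and without it the difference was -0.73 (adjusted p = 0.274).

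**Figure D2:**
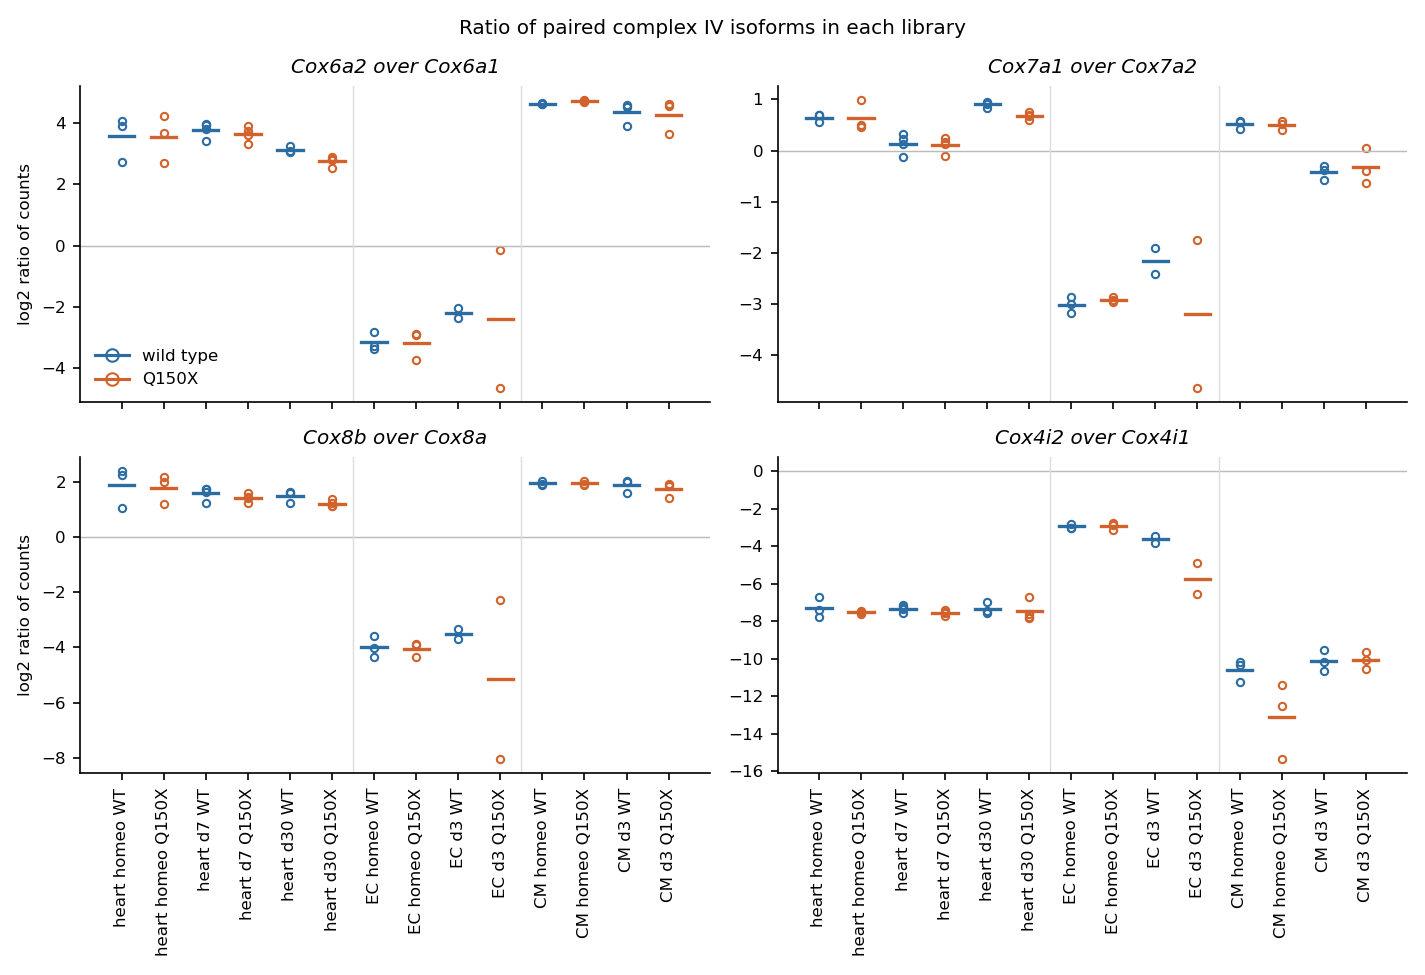
Log2 ratio of counts of the muscle or inducible isoform to its partner in each of the 43 libraries, by group, with WT in blue, Q150X in orange and lines at group means; each panel is 1 pair. Endothelial libraries sit below heart and cardiomyocyte libraries for Cox6a2/Cox6a1, Cox7a1/Cox7a2 and Cox8b/Cox8a and above them for Cox4i2/Cox4i1, and the Cox7a1/Cox7a2 ratio is lower in cardiomyocytes of day 3 than at homeostasis.

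At day 3 after MI, CM libraries held less of many of these transcripts. In WT CM 18 of the 36 genes fell and 0 rose, where 17.4% of 15169 genes were called and 7.22% were called lower. In Q150X CM 26 fell and 0 rose, where 27.0% were called and 12.1% were called lower. The median log2 difference was -0.33 in WT and -0.52 in Q150X, beside -0.01 and 0.00 for all genes. All 18 WT genes were among the 26 of Q150X, which have their own controls.

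The genes that fell were mostly subunits of the complexes. Of complex II, 2 of 4 subunits fell in WT and 3 of 4 in Q150X, with log2 differences of the 4 from -0.51 to -0.22 and from -0.56 to -0.21. Of complex III, 5 of 9 fell in WT and all 9 in Q150X, with the 9 between -0.79 and -0.29 in Q150X. Among complex IV subunits outside the pairs, 4 of 6 fell in WT and all 6 in Q150X. Of the 8 paired isoforms 5 and 6 fell. Of the 5 complex IV assembly factors only the heme-synthesis pair Cox10 and Cox15 fell, in both genotypes. Sdhaf2, Bcs1l and Cox7a2l were called in neither genotype.

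Cox7a1, the muscle form of subunit VIIa, had the smallest p in both genotypes. It stood at 231, 184 and 231 CPM in WT CM at homeostasis and at 93.3, 98.7 and 122 CPM at day 3 (log2 difference -1.04 ± 0.15, adjusted p = 0.000476). In Q150X CM it stood at 224, 298 and 270 CPM and then at 140, 114 and 95.8 CPM (-1.18 ± 0.15, adjusted p = 0.000124). No day-3 library of either genotype reached the lowest homeostasis library.

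Cox5a and Cox5b, 2 subunits bound to the core of complex IV, fell with it. Cox5a stood at 149, 146 and 156 CPM in WT at homeostasis and 82.7, 78.6 and 91.9 CPM at day 3 (-0.83 ± 0.16, adjusted p = 0.00357). In Q150X it went from 180, 179 and 218 to 127, 79.3 and 74.9 CPM (-1.03 ± 0.16, adjusted p = 0.000501). The Q150X library numbered 1 was the highest of day 3, still below all homeostasis libraries. Cox5b went from 319, 267 and 299 to 178, 186 and 224 CPM in WT (-0.59 ± 0.12, adjusted p = 0.00305) and by -0.77 ± 0.12 in Q150X (adjusted p = 0.000278). Uqcrfs1 went from 678, 619 and 662 to 486, 451 and 505 CPM in WT (-0.44 ± 0.09, adjusted p = 0.00411). Cox15 went from 44.6, 48.4 and 50.9 to 33.1, 30.3 and 31.2 CPM in Q150X (-0.61 ± 0.10, adjusted p = 0.000565), and groups did not overlap for either gene.

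Cytochrome c was called in neither genotype. Cycs stood at 564, 487 and 523 CPM in WT at homeostasis and 470, 438 and 540 CPM at day 3, so that the groups overlapped (-0.12, not called). In Q150X every day-3 library (445, 483 and 499 CPM) was below every homeostasis library (524, 564 and 508 CPM), and the difference of -0.16 was not called. Cox4i2 was close to the lower limit of counting in CM, between 0 and 0.736 CPM in all 12 libraries, and its log2 differences of 0.05 and 1.65 were not called.

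The fall was unequal within the Cox7a pair. Cox7a2 stood at 154, 137 and 156 CPM in WT at homeostasis and 139, 129 and 151 CPM at day 3 (-0.09, not called), and in Q150X it fell by 0.36 on the log2 scale (adjusted p = 0.0122). The share of Cox7a1 per kilobase was 70.7% ± 1.23 (SD, n = 3) in WT at homeostasis and 55.5% ± 2.37 at day 3, and in Q150X 70.3% ± 1.43 and 57.1% ± 5.87. The log2 ratio of the counts lay between 0.392 and 0.584 in the 6 homeostasis libraries and between -0.640 and 0.048 in the 6 day-3 libraries. Its mean difference was -0.89, with -0.95 in WT and -0.83 in Q150X (exact permutation p = 0.005, adjusted 0.02). For Cox6a2/Cox6a1 the difference was -0.37 (exact permutation p = 0.005, adjusted 0.02), and leaving out any single homeostasis library took its adjusted p above 0.05. Cox8b/Cox8a differed by -0.14 (adjusted p = 0.489 in the exact permutation test): Cox8b and Cox8a fell by similar amounts, -0.76 ± 0.19 and -0.70 ± 0.15 in WT and -0.92 ± 0.19 and -0.73 ± 0.15 in Q150X.

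Other cells' markers moved with these changes. The 12 cardiomyocyte markers summed to 84295 to 102016 CPM in CM at homeostasis and 59011 to 79422 CPM at day 3, and 7 of 12 fell in WT and 9 of 12 in Q150X. The 8 fibroblast markers summed to 18.2 to 87.5 CPM and then 410 to 908 CPM, and the 8 macrophage markers to 2.4 to 11.1 CPM and then 101 to 275 CPM. Their part in the fall was not tested. In bulk libraries fewer cells of a type and less RNA per cell cannot be told apart. The Cox7a1/Cox7a2 ratio does not depend on how libraries are scaled. The counts do: scaled by library totals alone, with the median of all genes at 0.30 and 0.27, WT CM gave 2 genes higher and 2 lower and Q150X CM 1 higher and 9 lower. Without 1 library at a time WT CM gave 9 to 18 genes, with 9 without homeostasis library 3 or day-3 library 1 and 11 without day-3 library 2.

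**Figure D3:**
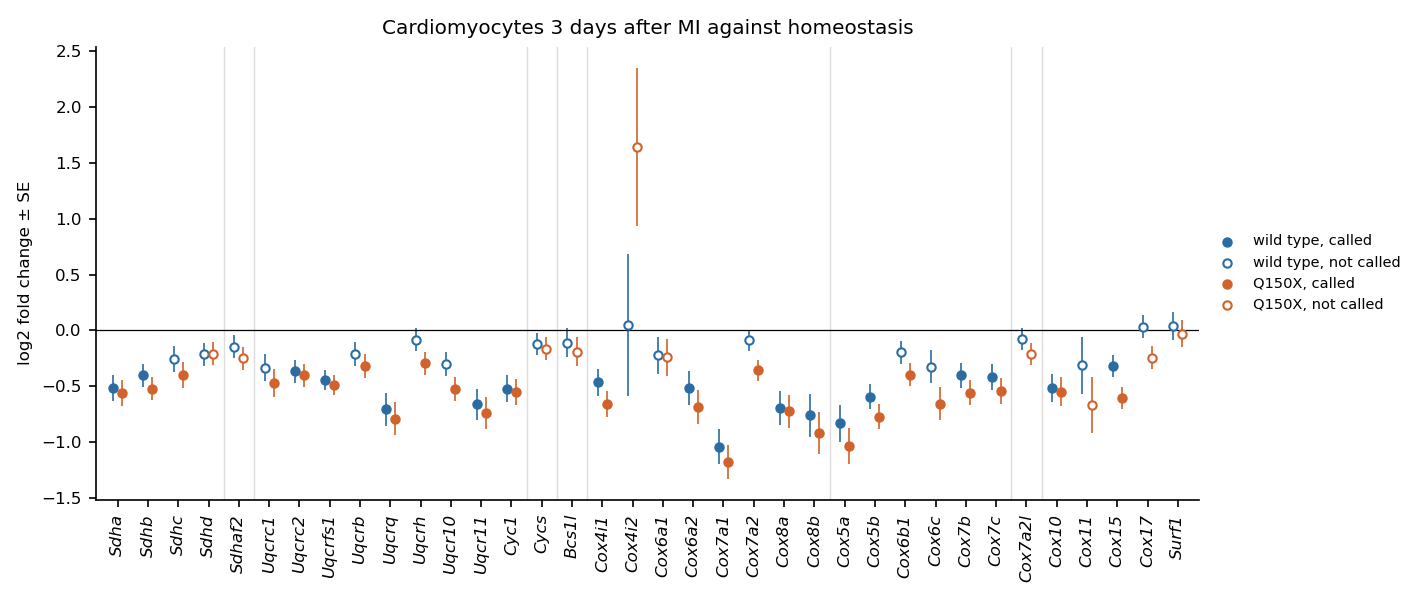
Log2 difference of day 3 after MI against homeostasis in cardiomyocytes for each gene, with WT in blue, Q150X in orange, bars of 1 SE and filled points for genes called by edgeR. All filled points lie below 0, and Cox7a1 at -1.04 and -1.18 is the lowest filled point in each genotype.

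No gene was called between Q150X and WT CM. At homeostasis and at day 3 edgeR called 0 of the 36, where 0.0% of all genes were called. At homeostasis 35 of the 36 were above 0 in Q150X, with a median log2 difference of 0.22 beside 0.01 for all genes, and 9 were higher and 1 lower at an unadjusted p under 0.05, where 5.65% and 7.59% of all genes were. The smallest adjusted p was 0.206, for Cox7a2 (0.32 ± 0.10). At day 3, 30 were above 0 and 0 passed an unadjusted p of 0.05. The difference between the genotypes' responses, tested as an interaction, called 0 genes, where 0.0% of all genes were called, with a smallest adjusted p of 0.653, so that the count of 26 against 18 does not show a different response.

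In whole hearts at day 7 after MI the genes that fell were led by the assembly factors Bcs1l and Cox15 and by cytochrome c. WT hearts had 4 genes lower and 0 higher, where 13.7% of 17845 genes were called and 6.07% were called lower. Q150X hearts had 12 lower and 0 higher, where 26.0% were called and 12.3% were called lower. In WT 34 and in Q150X 36 of the 36 differences were below 0, with medians of -0.23 and -0.35 beside 0.05 and 0.06 for all genes. The 4 WT genes were Bcs1l, Cox15, Cycs and Cox7a1, and the same 4 were among the 12 of Q150X.

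Bcs1l, which inserts the Rieske protein into complex III, had the smallest p in both genotypes. It stood at 28.5, 27.4 and 32.1 CPM in uninjured WT hearts and 13.8, 15.8, 17.1 and 13.4 CPM at day 7 (-0.97 ± 0.15, adjusted p = 0.00032). In Q150X hearts it stood at 44.7, 27.1 and 27.9 CPM and then 14.0, 13.3, 15.1 and 14.5 CPM (-1.22 ± 0.15, adjusted p = 1.75e-05). Every day-7 heart was below every uninjured heart.

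Cycs stood at 625, 651 and 552 CPM in uninjured WT hearts and 440, 389, 467 and 391 CPM at day 7 (-0.53 ± 0.14, adjusted p = 0.0141), and its difference in Q150X was -0.69 ± 0.14 (adjusted p = 0.00124). Cox15 stood at 35.8, 41.7 and 42.4 CPM and then 28.9, 26.5, 26.1 and 22.6 CPM in WT (-0.62 ± 0.13, adjusted p = 0.00325), with -0.88 ± 0.13 in Q150X (adjusted p = 8.9e-05). In both genes the WT groups did not overlap. The fourth gene by p in Q150X was Sdha at -0.74 ± 0.16 (adjusted p = 0.00253). The others were Sdhd, Uqcrc2, Cyc1, Sdhaf2, Cox5a, Cox7a1, Cox10 and Cox11, between -1.19 and -0.38. Cox11 stood at 25.0 CPM in uninjured Q150X heart 1, which stands apart, and at 6.68 and 5.42 CPM in the others. Its day-7 hearts, at 4.57 to 6.56 CPM, overlapped those others. Heart 1 was also clearly the highest uninjured Q150X heart for Sdha, Cyc1, Cox5a and Cox10.

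The Cox7a pair shifted in hearts too. Cox7a1 stood at 297, 408 and 398 CPM in uninjured WT hearts and 271, 174, 261 and 249 CPM at day 7 (-0.62 ± 0.19, adjusted p = 0.0355). Its share of the pair per kilobase was 72.4% ± 1.16 (SD, n = 3) and then 64.8% ± 3.08 (n = 4) in WT, and 72.3% ± 3.94 and 64.4% ± 2.39 in Q150X. The log2 ratio of counts differed by -0.51 in WT and -0.54 in Q150X (exact permutation p = 0.000816, adjusted 0.02), the smallest p that 1225 regroupings allow. The other pairs did not pass at day 7, with adjusted p = 0.358 to 0.942 in the exact permutation test. Cox8b/Cox8a, at -0.34, did pass without the libraries that stand apart (-0.71, adjusted p = 0.0218), within its library set (-0.70, adjusted p = 0.0218, a choice made after seeing the data) and without uninjured WT heart 1 (-0.55, adjusted p = 0.0316).

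Several limits bear on day 7. Without uninjured WT heart 2 the WT count was 2, and without uninjured Q150X heart 1 the Q150X count was 6. Uninjured hearts with the same number deviated together, and with that number as a block among them 7 WT genes were called, all lower. Without the libraries that stand apart WT gave 7 lower and Q150X 8 lower and 1 higher. With the library set as a term, chosen after seeing the data, WT gave 5 genes, including all 4, and Q150X 10, of which 8 were shared. Cyc1, Cox5a, Cox10 and Cox11 were then not called in Q150X. The cardiomyocyte marker sum was 70149 to 110446 CPM in uninjured hearts and 53523 to 68853 CPM at day 7, and the fibroblast sum 801 to 1931 and 1934 to 5743 CPM. The part of these cells in the fall was not tested.

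**Figure D4:**
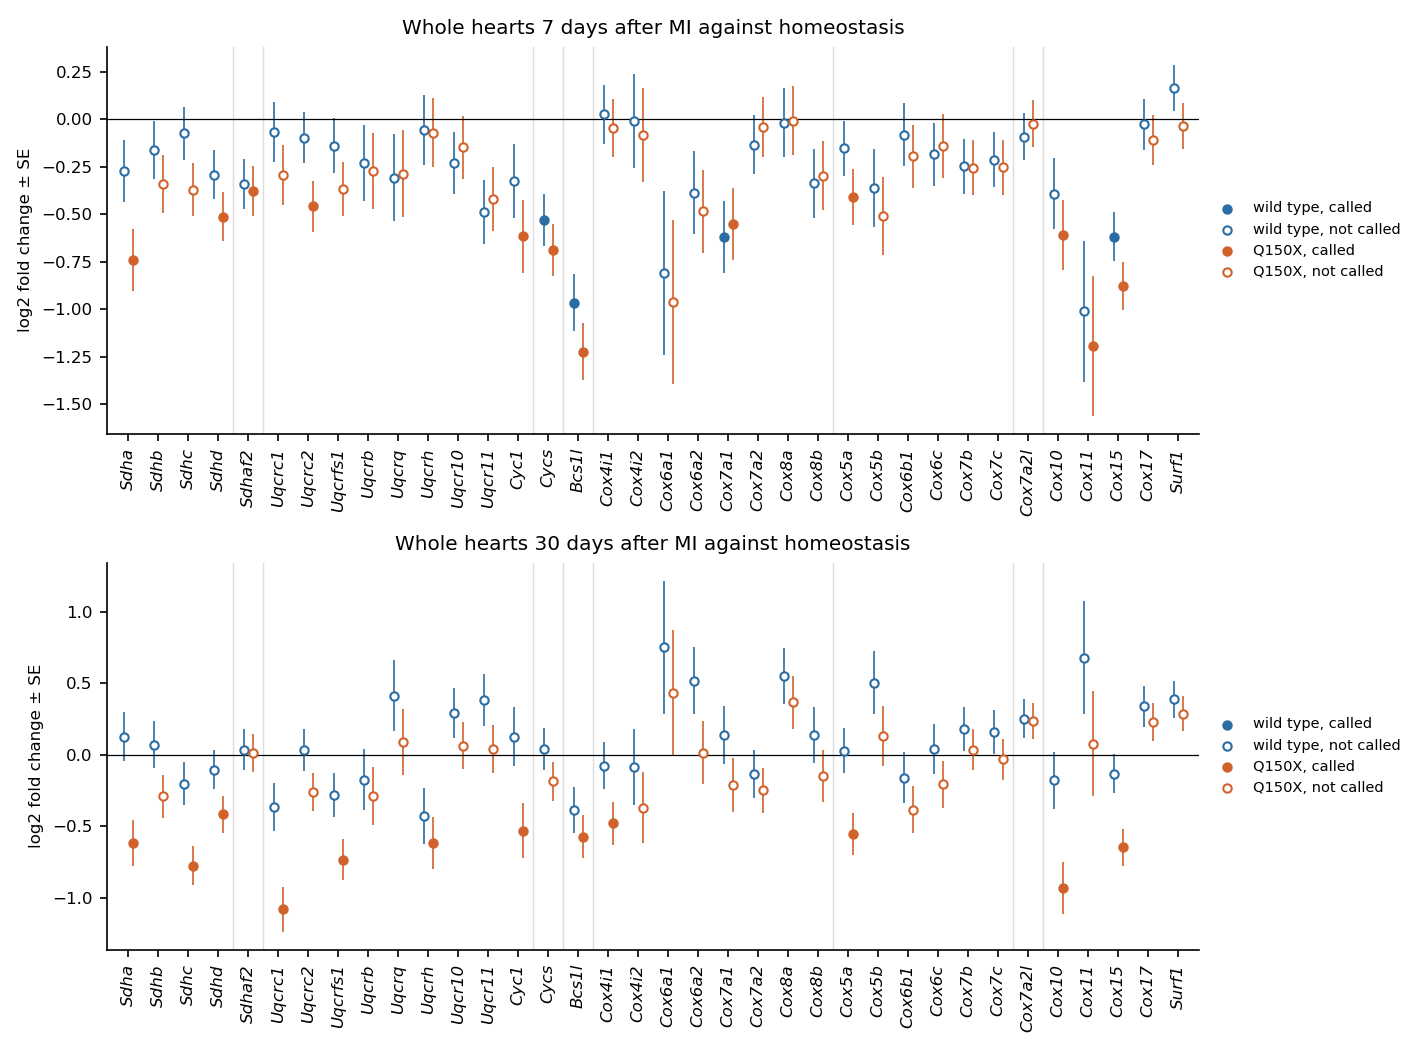
Log2 difference against uninjured hearts for each gene at day 7 and at day 30 after MI, in separate panels, with WT in blue, Q150X in orange, bars of 1 SE and filled points for genes called by edgeR. Bcs1l at -0.97 and -1.22 has the smallest p of day 7, Uqcrc1 at -1.08 has that of day 30 in Q150X, and no WT point is filled at day 30.

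Day 30 was compared with the same uninjured hearts, so its values and those of day 7 share their controls. In WT hearts 0 genes were called by edgeR where 8.93% of all genes were, with 6 higher and 3 lower at an unadjusted p under 0.05 (14.0% and 13.5% of all genes), and the smallest adjusted p was 0.0635 for Surf1 (0.39). With the number of the uninjured hearts as a block 6 WT genes were called, 5 higher and 1 lower, and without uninjured WT heart 1 the count was 4. In Q150X hearts 12 genes were lower and 0 higher, where 29.7% were called and 14.2% were called lower. They were led by Uqcrc1, Sdhc, Uqcrfs1 and Cox15, and included 3 of 4 complex II subunits and 4 of 9 complex III subunits.

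Uqcrc1, a core subunit of complex III, stood at 1096, 799 and 854 CPM in uninjured Q150X hearts, 641, 661, 801 and 893 CPM at day 7 and 426, 447, 375 and 487 CPM at day 30 (-1.08 ± 0.16 against uninjured, adjusted p = 0.000141). In WT it stood at 680, 906 and 856 CPM, then 838, 657, 856 and 754 CPM, and then 723, 540 and 633 CPM. The 4 Q150X hearts of day 30 were the lowest of all 21 hearts for this gene. Sdhc, a membrane anchor of complex II, stood at 608, 403 and 448 CPM in uninjured Q150X hearts and 294, 315, 243 and 285 CPM at day 30 (adjusted p = 0.000567). Uqcrfs1 stood at 880, 732 and 769 and then at 499, 482, 434 and 496 CPM (-0.73 ± 0.14, adjusted p = 0.00103), and Cox15 at 52.9, 39.3 and 39.4 and then at 24.7, 27.4, 27.9 and 32.1 CPM (-0.65 ± 0.13, adjusted p = 0.00111). For these genes no Q150X heart of day 30 reached an uninjured Q150X heart.

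Bcs1l and Cycs, which led at day 7, stood higher again at day 30. Bcs1l stood at 23.4, 21.05 and 22.9 CPM in WT and 19.6, 24.9, 21.8 and 23.1 CPM in Q150X, and remained called lower than uninjured in Q150X (-0.57). Cycs stood at 698, 563 and 623 CPM in WT and 591, 572, 592 and 546 CPM in Q150X, and was called in neither genotype at day 30. Day 30 against day 7 directly gave 16 genes higher and 0 lower in WT, where 30.0% of genes were called and 13.9% were called higher. In Q150X it gave 9 higher and 5 lower, where 31.4% of genes were called. Of all 17845 genes there, 2650 were called higher and 2953 lower, so lower genes were no more frequent among the 36 than among all genes. In WT the smallest p were those of Uqcr11, a small complex III subunit (0.87 ± 0.17, adjusted p = 0.00105), Cox11 (1.69 ± 0.37, adjusted p = 0.00271), Cox5b (0.87 ± 0.21, adjusted p = 0.00439) and Cycs (0.57 ± 0.14, adjusted p = 0.00459). In Q150X the higher ones were led by Bcs1l (0.65 ± 0.14, adjusted p = 0.00199), and the lower ones by Uqcrc1 (-0.79 ± 0.15, adjusted p = 0.000697) and Uqcrh (-0.55, adjusted p = 0.0198). No isoform ratio of day 30 passed against uninjured hearts, with -0.61 for Cox6a2/Cox6a1 (adjusted p = 0.18 in the exact permutation test), 0.15 for Cox7a1/Cox7a2 (adjusted p = 0.285) and -0.49 for Cox8b/Cox8a (adjusted p = 0.186). Without the libraries that stand apart these 3 ratios passed, at -1.03, 0.24 and -0.85.

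All day-7 hearts lay in one set of libraries and all day-30 hearts in the other, so that in this comparison time and set cannot be told apart. Among uninjured hearts 8 of the 36 genes were higher in the first set without overlap and 7 were lower, where 31.9% and 25.5% of the 12711 genes were. The higher ones were Uqcrq, Cox4i2, Cox5b, Cox6a1, Cox6a2, Cox7a2l, Cox8a and Cox11, and the lower ones Uqcrb, Uqcrh, Cox6b1, Cox6c, Cox7a2, Cox7b and Cox8b. Cox6a1 stood at 139 and 206 CPM in the 2 uninjured hearts of the first set and 36.8 to 49.3 CPM in the 4 of the second, at 40.3 to 59.3 CPM at day 7 and 128 to 133 CPM at day 30. Cox11 stood at 13.6 and 25.0 against 5.42 to 7.63 CPM, at 3.86 to 6.56 CPM at day 7 and 9.94 to 16.7 CPM at day 30. Cox8a stood at 87.4 and 114 against 57.7 to 65.3 CPM, and at 92.7 to 113 CPM at day 30. Cox5b, which is among the genes with the smallest p of day 30 against day 7, stood at 598 and 896 against 433 to 504 CPM. For these 4 genes the uninjured hearts split by set and not by genotype. The 2 uninjured hearts of the first set are also those with atrial marker sums of 2809 and 2754 CPM. Set and atrial content therefore cannot be told apart among uninjured hearts. The term for the set is estimated from uninjured hearts alone, as only they lie in both sets, so it carries any atrial difference. Atrial sums of day-30 hearts were 220 to 1134 CPM. Bcs1l stood at 28.5 and 44.7 CPM in the uninjured hearts of the first set and 27.1 to 32.1 CPM in those of the second, ranges that overlap. Its day-7 hearts were below the uninjured hearts of both sets.

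With the set as a term, WT day 30 against day 7 gave 4 genes in place of 16, 2 of them shared (Cox7b, Sdhaf2), and Q150X gave 5 in place of 14, 3 of them shared (Sdhaf2, Sdhc, Uqcrc1). Bcs1l and Cycs were then not called in either genotype, and Cox6a1 turned to -0.38 in WT and -0.54 in Q150X. Against uninjured hearts the Q150X count at day 30 was 11, of which 10 were shared, and WT gave 1 gene, Bcs1l (-0.62 ± 0.17, adjusted p = 0.0379). Without the libraries that stand apart, no uninjured heart shares a set with day 30: WT then gave 8 higher and 5 lower and Q150X 8 higher and 11 lower, and day 30 against day 7 gave 20 higher and 1 lower in WT and 14 higher and 6 lower in Q150X.

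**Figure D5:**
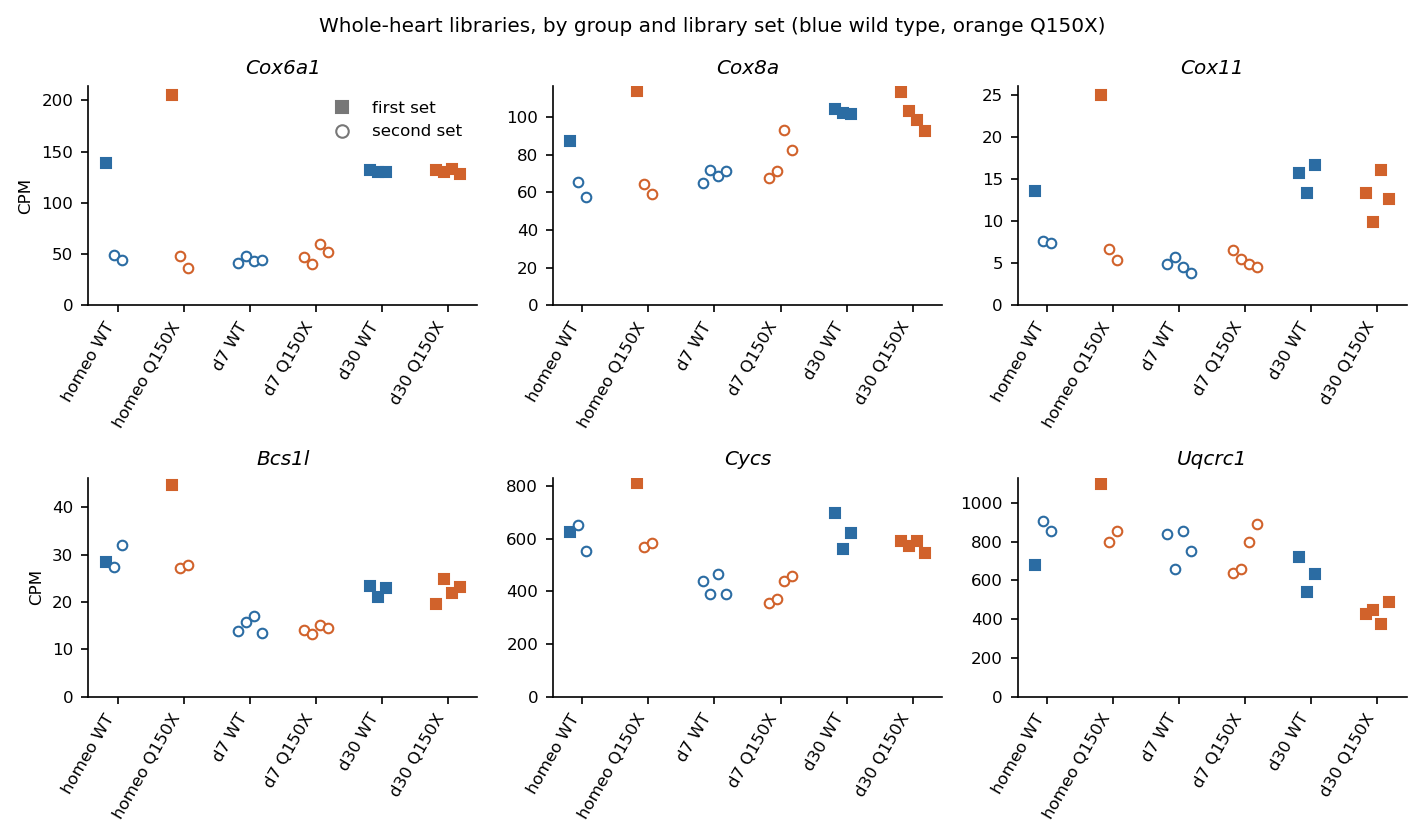
CPM of Cox6a1, Cox8a, Cox11, Bcs1l, Cycs and Uqcrc1 in each of the 21 heart libraries by group, with squares for the set of 9 libraries with high mt-Atp8, circles for the other 12, WT in blue and Q150X in orange. Cox6a1, Cox8a and Cox11 are higher in both uninjured squares than in the uninjured circles, while Bcs1l is lowest in the circles of day 7 and Uqcrc1 in the Q150X squares of day 30.

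Genotype gave no called gene in hearts. Q150X against WT called 0 of the 36 at homeostasis and at day 7, where 0.0% of all genes were called, and 0 at day 30, where 0.443% were. At day 30, 35 of the 36 differences were below 0, with a median of -0.20 beside 0.04 for all genes, and 7 were lower at an unadjusted p under 0.05, as were 6.11% of all genes. The smallest adjusted p was that of Uqcrc1 at 0.131 (-0.54 ± 0.16). Sdha stood at 1749, 1438 and 1464 CPM in WT and 1037, 1162, 945 and 1251 CPM in Q150X hearts of day 30, groups that did not overlap (-0.50, adjusted p = 0.171). DESeq2 called 1 gene there, and without the libraries that stand apart edgeR called 5, all lower.

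The interaction at day 30, which asks whether the change from homeostasis differs between genotypes, called 0 genes, where 0.0% of all genes were called, with a smallest adjusted p of 0.393. At an unadjusted p under 0.05, 8 were lower, as were 4.61% of all genes. All 36 interaction differences were below 0, with a median of -0.30, where 49.5% of all genes were below 0 and their median was 0.01. The interaction takes in the genotype difference at homeostasis, where 28 of the 36 were above 0 in Q150X. Their median there was 0.11, beside 0.03 for all genes. Uninjured Q150X heart 1, which stands apart, was high for Sdha, at 2227 CPM beside 1368 and 1463 CPM. The size of the interaction without that heart is not given here. The interaction at day 7 called 0 as well. The cardiomyocyte marker sum of day 30 was 69145 to 77654 CPM in WT and 43021 to 63181 CPM in Q150X hearts, and the fibroblast sum 2079 to 4102 and 4449 to 7089 CPM. Neither range overlapped between genotypes, and their part in the lower values was not tested. No isoform ratio passed the exact permutation test between genotypes, with a smallest adjusted p of 0.244, for Cox4i2/Cox4i1 in CM. Cox8b/Cox8a in hearts, at -0.18 with all libraries, passed without the libraries that stand apart (-0.22, adjusted p = 0.0416) and without uninjured WT heart 1 (-0.32, adjusted p = 0.038).

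EC libraries showed few calls among these genes. Genotype called 0 at homeostasis and 0 at day 3, where 0.0% of genes were called. In WT EC at day 3 Surf1 fell, from 23.0, 23.4 and 25.1 to 15.3 and 15.3 CPM (-0.64 ± 0.17, adjusted p = 0.0474), 1 gene of 36 where 9.52% were called and 2.81% were called lower. The WT count was 0 with library totals alone, with no filter, with the replicate number as a block and without any 1 of the 5 WT libraries. In Q150X EC 2 genes rose and 1 fell where 33.8% were called. Cox10 went from 7.40, 9.16 and 8.80 to 12.5 and 22.4 CPM (1.05 ± 0.26, adjusted p = 0.0167), and Cox15 from 20.8, 21.5 and 21.02 to 25.8 and 32.6 CPM (0.47 ± 0.15, adjusted p = 0.0416). The second of the day-3 libraries, which stands apart, was the higher one for both.

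Cox4i2 was the third. It stood at 30.6, 25.7 and 18.6 CPM in uninjured Q150X EC and 7.10 and 1.08 CPM at day 3 (-2.63 ± 0.69, adjusted p = 0.0214), and in WT at 16.4, 26.7 and 24.4 and then 14.4 and 11.5 CPM. Every day-3 EC library was below every uninjured EC library. Cox4i2 made up 11.7% ± 0.854 (SD, n = 3) of the Cox4i pair per kilobase in uninjured WT EC and 7.66% ± 1.44 (n = 2) at day 3, and in Q150X 12.1% ± 1.43 and 2.19% ± 1.57. The log2 ratio Cox4i2/Cox4i1 differed by -1.75 (exact permutation p = 0.01, adjusted 0.036), the smallest p that 100 regroupings allow, but the call was lost, with adjusted p = 0.06 to 0.0818, when any 1 of the 10 libraries was left out. The interaction between genotype and day 3 called 0 genes.

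The EC libraries of day 3 differed from those of homeostasis in more than time. Their 12 endothelial markers summed to 7472 to 11264 CPM in 3 libraries and 1341 CPM in the second Q150X library, against 19625 to 23620 CPM at homeostasis. Xist stood at 494 to 1089 CPM at day 3 and 0.649 to 1.19 CPM at homeostasis, and Ddx3y, a Y-linked gene, at 0.191 to 0.501 and 188 to 267 CPM. Sex and time cannot be told apart in EC. Transcripts of the mitochondrial genome took 1.73% to 2.396% of counts in uninjured EC libraries. At day 3 they took 17.984% and 17.584% in WT, and 35.477% and 3.645% in Q150X. The 4 complex III and IV subunits of that genome had median log2 differences of 3.54 in WT and 4.74 in Q150X. Of these 4 subunits, 0 were called in WT and 4 were called higher in Q150X. The cause of this difference was not tested. Markers of mural cells, which surround vessels, also summed to less at day 3. The 8 pericyte markers summed to 2931 to 4453 CPM at homeostasis and 215 to 2166 CPM at day 3, and the 5 smooth muscle markers to 1397 to 2184 and then 18.7 to 510 CPM. The 8 macrophage markers summed to 87.2 to 172 CPM and then 612 to 6790 CPM. Their part in the values of Cox4i2 and the other genes was not tested. Muscle isoforms were uneven within the Q150X pair of libraries: Cox6a2 stood at 67.1 and 1.89 CPM. Without the second Q150X library 11 genes were called in WT (7 higher, 4 lower) and 13 in Q150X (10 higher, 3 lower). Without the first Q150X library of day 3 instead, 20 genes were called in Q150X, 25 between genotypes at day 3 and 24 in the interaction, with the library that stands apart as the only one of its group.

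Other genes of the respiratory chain were counted from lists written with earlier results known. In CM at day 3, 23 of 36 nuclear complex I subunits fell in WT and 33 in Q150X, with 0 higher, and 9 and 13 of 15 complex V genes fell, where 7.22% and 12.1% of all genes were called lower. Of the 4 complex III and IV subunits of the mitochondrial genome 3 fell in WT and 0 in Q150X. Of 29 further complex II to IV genes 5 fell and 1 rose in WT and 9 fell and 1 rose in Q150X. Ndufa4, now counted as a complex IV subunit, was among those that fell (-0.55 and -0.74). Among 17 regulators of mitochondrial biogenesis 3 and 5 fell, with Perm1 at -0.58 and -0.82 and Esrra, a nuclear receptor of energy metabolism, at -0.40 and -0.59.

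In hearts at day 7 complex I had 0 called in WT and 7 lower in Q150X, while of 30 further complex II to IV genes 11 were lower in WT and 15 in Q150X, where 6.07% and 12.3% of all genes were called lower. Most of those are assembly and translation factors, such as Uqcc1, an assembly factor of complex III (-0.85 and -1.14), and Taco1, which aids translation of a complex IV subunit (-1.29 and -1.66). Ppara, a receptor of fatty acid metabolism, was at -1.60 and -1.63. At day 30 Q150X hearts had 12 complex I, 7 complex V and 12 of 17 regulator genes lower, and WT hearts 1, 0 and 1, where 29.7% (14.2% lower) and 8.93% of all genes were called. Of the 30 further complex II to IV genes 3 were higher and 7 lower in Q150X and 1 was higher in WT. The interaction of genotype and day 30 called 0 genes in each of these lists. Among the regulators lower in Q150X were Mef2a (-0.79), Gabpa (-0.83) and Esrrg (-0.94).

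Counts of 8 of the 36 genes could include reads of near-identical copies elsewhere in the genome. Counts assigned to the copies came to 8.3% of those of Cycs, 7.9% of Cox5b and 7.8% of Uqcrb, and to at most 0.89% for Cox6c, Cox7a2l, Cox7b, Cox7c and Cox17. The sources used here do not say how the authors' counting treated such reads, so the levels of Cycs, Cox5b and Uqcrb are less certain than those of the others.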

How the data were processed

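Total RNA (2 µg per library, extracted with Trizol) was sequenced on an Illumina instrument, per the labels' protocols. The authors deposited 1 table of raw read counts per Ensembl gene for 43 libraries, a count not normalized for depth or length. The submitters' processing notes name HISAT2, kallisto and the genome build GRCm39. The sources used here do not give their roles, their versions, the annotation or the strandedness of the counting. Symbols, matched for 52029 of 57010 IDs, and transcript lengths came from GENCODE M21, which is on GRCm38, so gene coordinates were not used. Of all genes 20544 had 0 counts in every library.

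Counts were fitted with edgeR 4.0.16 in R 4.3.3 (TMM scaling, filterByExpr with a minimum count of 10 and total of 15, robust quasi-likelihood F-tests), within hearts (17845 genes), EC (18223) and CM (15169), and over the 18 uninjured libraries for compartments (17617). All 36 genes passed the filter in each fit, which groups where a gene is high can decide. Adjustment was by Benjamini-Hochberg over all genes of a fit. CPM are counts per 1000000 of the TMM-scaled library size of that fit. Differences are the group named first minus the second, on the log2 scale, with SE. Isoform ratios took counts plus 0.5 and exact two-sided permutation tests, 36 in all. The analysis scripts were tested on simulated data, with 100 genes changed by 1.5-fold and 100 by 2-fold in each comparison simulated. Of the 1.5-fold changes 0% (WT EC at day 3) to 55% (WT CM at day 3) were recovered. Of the 2-fold changes 0% to 90% were recovered, in the same comparisons. For Q150X against WT hearts at day 30 the shares were 11% and 68%. A gene that was not called is thus not shown to be unchanged. Near copies were matches of transcripts with BLAST 2.17.0 at 95% identity or more over at least 200 bases. Tables and plots used Python 3.11.15.

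Values per library are given for isoform pairs, Cycs and up to 4 called genes per direction with the smallest p in a comparison; Sdha between genotypes at day 30 and the genes that split by library set were singled out after their values were seen. The 36 genes, the lists and the tests were chosen with earlier results of these data known. Same-numbered libraries were checked for shared deviations from their group means: among uninjured hearts the correlations were 0.591, 0.310 and 0.333, a pairing that comes from the data and not from the labels, and no other time point had all pairs above 0.1. Alternatives were DESeq2 1.42.0 and its size factors, library totals alone, no filter, a replicate block, a pseudocount of 5, each library left out, and the libraries that stand apart left out. A term for the heart library set was added after seeing the data.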

Additional observations from a re-analysis of the deposited data

Results flagged for a closer look

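Within groups of 4 hearts, 7 of 120 checks found a library far from the others. Chance alone gives about 1 in 20, a share close to that found here. The second WT heart of day 7 was the lowest of its group for Cox5b at 347 CPM (others 427 to 442), for Cox7b at 382 CPM (others 458 to 466) and for Surf1 at 24.2 CPM (others 29.4 to 30.4). Cox7a1 was also lowest in this heart, at 174 CPM, but was not flagged. Values of 1 library share its scaling, so flags of the same heart are not independent of each other. The fourth Q150X heart of day 7 was the highest for Sdhd, a membrane anchor of complex II, at 337 CPM (others 276 to 278), and for Uqcrfs1 at 758 CPM (others 549 to 581). The fourth Q150X heart of day 30 was the highest for Cox4i2 at 7.51 CPM (others 3.86 to 4.42) and the lowest for Cox7a1 at 284 CPM (others 321 to 325).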

How the results depend on the processing

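Most counts of called genes kept within 1.5 times the main count: DESeq2 size factors in 24 of 24 comparisons, no filter in 22, DESeq2 in 21, library totals alone in 19 and leave-one-out in 148 of 174 fits. With the library set as a term 8 of 11 counts did, and without the libraries that stand apart 12 of 19 counts did and 16 of 24 isoform ratios kept their call. Counts of 0 in the main fit that stayed at 0 are among the counts that kept, and many main counts were 0. With library totals alone, every count that moved came from a comparison with called genes in the main fit. The causes of the changes below were not tested. The share of all genes called under each alternative is not given, so counts under alternatives, here and above, are not set against all genes.

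Scaled by library totals alone, the count was 5 in Q150X hearts at day 7, 0 in WT EC, 4 in WT CM and 10 in Q150X CM at day 3, and 26 for CM against heart. That setting turned Cox7a2l to -0.93 and Surf1 to -0.84 in CM against EC, and to 0.20 and 0.011 in EC against heart. In CM against heart it turned Sdha to -0.038, Sdhaf2 to -0.17, Uqcrc1 to -0.27, Uqcrfs1 to -0.25 and Cox15 to -0.10. With no filter the count was 4 for CM against heart and 0 in WT EC at day 3. DESeq2 called 1 gene between genotypes at day 30, 1 in WT hearts at day 30 and 2 in WT EC at day 3.

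With the replicate number as a block, WT hearts at day 30 had 1 gene, WT EC at day 3 had 0 and Q150X EC 1. A block among the uninjured hearts, whose numbers pair, gave 7 in WT hearts at day 7 and 6 at day 30 and changed no other count by over 1.5 times.

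With the library set as a term, WT hearts at day 30 had 1 gene, and day 30 against day 7 had 4 in WT and 5 in Q150X. It turned Uqcrq to -0.027, Cox6a1 to -0.38, Cox7a2l to -0.024 and Cox8a to -0.13 in WT, and Uqcrh to 0.10, Cox6a1 to -0.54 and Cox11 to -0.22 in Q150X. Within its set, Cox8b/Cox8a at day 7 differed by -0.70 and passed.

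Without the libraries that stand apart, counts were 5 between genotypes in hearts at day 30, 7 in WT hearts at day 7, 13 and 19 in WT and Q150X hearts at day 30, and 11 in WT EC at day 3. The Q150X EC group of day 3 then held 1 library, with a median difference of 0.06 between genotypes and 0.21 in Q150X. Cox8b/Cox8a then differed by -0.22 between heart genotypes, -0.71 at day 7, -0.85 at day 30 and, with a changed sign, -0.26 in CM against heart, all with adjusted p under 0.05. Cox6a2/Cox6a1 and Cox7a1/Cox7a2 differed by -1.03 and 0.24 in hearts at day 30 and by 2.00 and 1.01 in EC at day 3.

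Leaving out 1 library at a time, counts ranged from 2 to 6 in WT and 6 to 16 in Q150X hearts at day 7, from 0 to 4 in WT hearts at day 30, from 9 to 15 in WT and 7 to 12 in Q150X hearts of day 30 against day 7, from 9 to 18 in WT CM at day 3 and from 4 to 8 in CM against heart. In EC at day 3, leaving out libraries of the groups compared, they ranged from 0 to 25 between genotypes, 0 to 0 in WT, 0 to 20 in Q150X and 0 to 24 in the interaction. Cox8b/Cox8a ranged from -0.32 to -0.083 between heart genotypes, -0.55 to -0.22 at day 7 and -0.70 to -0.37 at day 30. In hearts at day 30 Cox6a2/Cox6a1 ranged from -0.82 to -0.43 and Cox7a1/Cox7a2 from 0.10 to 0.23. Cox4i2/Cox4i1 ranged from -2.16 to -1.34 in EC and 1.18 to 2.16 in CM at day 3, and Cox6a2/Cox6a1 in CM from -0.45 to -0.21. Cox4i2 counts in CM, near 0, limit any statement on that gene there.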
